A study of Mus musculus with 6 samples.

Results

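The genes described here are *Usp17la*, *Usp17lc*, *Usp17le*, *Zfp352*, *Tmem92* and *Arg2*, which are known to be active in the 2-cell-like state of mouse embryonic stem (mES) cells and lie outside the *Zscan4* gene cluster. They are 6 of the 16668 genes listed, and all 6 were among the 11538 that entered the tests by averaging 0.5 RPKM or more. RPKM is a read number scaled to exon length and library size. The genes were selected on their measured RPKM values in all 6 libraries, so their own levels and differences are given as a description and carry no p-value. The question was whether 2-cell-like genes that lie apart from each other in the genome rise together.

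A small share of mES cells in culture is known to pass at any time through a transient state that resembles the 2-cell embryo, in which embryonic genome activation takes place. Cells in this state express the transcription factor Dux, the endogenous retrovirus MERVL, the *Zscan4* cluster and a set of genes that most cells of the culture keep silent. Several chromatin repressors, variant Polycomb complexes among them, are known to hold this programme down. In RNA from a whole culture, more cells in the state and more RNA per cell in the state cannot be told apart.

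RNA-seq was performed on E14 mES cells of strain 129/Ola, grown without feeder cells in 2i medium with LIF and transfected with siRNA. The labels gave 3 groups of 2 libraries, namely control (wild type), Ring1B-KD and Dzip3-KD. Ring1B, the product of *Rnf2*, and Dzip3 both attach ubiquitin to histone H2A, and the label of each group names the gene its siRNA was meant to target. The study calls the libraries biological duplicates. All cells belonged to 1 line, and siRNA leaves part of the targeted RNA in place. The names of the deposited files carry a number and a condition word, and in 4 of the 6 libraries this word was not that of the label. In the first set of 3 files, the words control, Ring1BKD and Dzip3KD stood for the labels control 1, control 2 and Ring1B-KD 1. In the second set of 3 files, the word control stood for the label Ring1B-KD 2, Ring1BKD for Dzip3-KD 1 and Dzip3KD for Dzip3-KD 2. Values are given below by word within each set with the label beside it, and by label. Both are names only, and the levels of the targeted genes are given below.

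The depth recovered from the values was 3015349 to 3583612 mapped reads per library. All 8 mES cell markers examined, *Pou5f1* and *Nanog* among them, were above 0 in every library, with a summed level of 1452 to 1956 RPKM. The summed level was 11.9 to 17.8 RPKM for 6 trophectoderm markers, 0.999 to 2.79 RPKM for 5 primitive endoderm markers and 1.18 to 3.10 RPKM for the 3 fibroblast markers listed of 5. The trophectoderm regulator *Cdx2* was at 0 in all 3 libraries of the second set. In the first set it was at 0.62, 0.41 and 0.28 RPKM in the control, Ring1BKD and Dzip3KD files. The other trophectoderm markers were above 0 in every library, with *Tfap2c* at 6.46 to 14.3 RPKM and *Eomes* at 0.896 to 1.87 RPKM. None of the genes tested in these 4 marker lists passed the threshold in any of the 6 comparisons described below.

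The genes lie on 4 chromosomes (mm9, GENCODE release M1). *Usp17la* lies on the plus strand at chr7:112005523-112011181, *Usp17lc* on the plus strand at chr7:110563586-110568394 and *Usp17le* on the minus strand at chr7:111916825-111921391. With *Usp17lb* and *Usp17ld* they form a group of 5 genes within 1.61 Mb. The *Zscan4* cluster is on the same chromosome, 98.4 Mb away. *Zfp352* lies on the plus strand at chr4:89885511-89892393, *Tmem92* on the minus strand at chr11:94638531-94644017 and *Arg2* on the plus strand at chr12:80231764-80257288. The genes outside the *Usp17l* group therefore share a chromosome neither with it nor with each other.

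The RefSeq promoter table (GRCm38.p6) held 3 of the 6 genes. Of these 3, *Usp17la* and *Usp17lc* belong to the same *Usp17l* group on chromosome 7, and only *Zfp352* lies apart from it. The 3 genes vary together below, and their windows of 250 bases before to 50 bases after the start site are printed. They run 5′ to 3′ on the gene strand, and capitals mark matches to TATAAA, GATTCAATC or TAATCCAGG on either strand.
Usp17la, chr7:104856766-104857065, plus strand: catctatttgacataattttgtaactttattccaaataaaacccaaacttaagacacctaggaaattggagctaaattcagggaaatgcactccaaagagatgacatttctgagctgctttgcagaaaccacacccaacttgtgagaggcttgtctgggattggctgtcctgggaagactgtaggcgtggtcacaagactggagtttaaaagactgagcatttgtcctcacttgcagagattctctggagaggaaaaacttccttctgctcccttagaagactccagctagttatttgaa
Usp17lc, chr7:103416446-103416745, plus strand: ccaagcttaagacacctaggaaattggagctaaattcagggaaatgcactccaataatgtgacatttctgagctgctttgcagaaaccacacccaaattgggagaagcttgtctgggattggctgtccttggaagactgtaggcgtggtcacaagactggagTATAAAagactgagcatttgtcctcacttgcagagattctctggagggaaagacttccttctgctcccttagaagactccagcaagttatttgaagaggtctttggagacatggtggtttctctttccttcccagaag
Zfp352, chr4:90218570-90218869, plus strand: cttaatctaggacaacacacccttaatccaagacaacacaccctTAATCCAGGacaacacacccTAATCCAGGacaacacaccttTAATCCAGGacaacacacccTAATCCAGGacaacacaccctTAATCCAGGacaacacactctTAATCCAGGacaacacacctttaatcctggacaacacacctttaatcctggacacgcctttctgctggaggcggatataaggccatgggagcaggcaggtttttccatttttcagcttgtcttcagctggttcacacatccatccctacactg
The windows of *Usp17la* and *Usp17lc* were 95.3% identical over 257 aligned bases. The TATA box letters TATAAA occurred once in the *Usp17lc* window, 88 bases before the start site, and not in the windows of *Usp17la* or *Zfp352*. They occurred on either strand in 13.6% of the 32851 promoters of the table. The *Zfp352* window held 6 tandem matches to TAATCCAGG, letters chosen after the window had been seen and present in 0.24% of all promoters. GATTCAATC, part of the sequence Dux is known to bind, was found in 0.149% of promoters and in none of the 3 windows. No match overlapped a match to another motif.

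The *Usp17l* genes encode deubiquitylating enzymes of the DUB family, which remove ubiquitin from proteins. *Usp17la* was at 7.26 RPKM in the control file (label control 1), 24.5 RPKM in the Ring1BKD file (label control 2) and 8.95 RPKM in the Dzip3KD file (label Ring1B-KD 1) of the first set. In the second set it was at 1.83 RPKM in the control file (label Ring1B-KD 2), 13.5 RPKM in the Ring1BKD file (label Dzip3-KD 1) and 3.58 RPKM in the Dzip3KD file (label Dzip3-KD 2). The Ring1BKD file was the highest in both sets, 3.38 and 7.40 times the control file. These levels rest on 223 reads (95% Poisson interval 195 to 254) against 58 (44 to 75) in the first set and 117 (96.8 to 140) against 16 (9.15 to 26) in the second. The intervals cover counting error only.

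*Usp17lc* was at 10.6, 28.7 and 11.0 RPKM in the control, Ring1BKD and Dzip3KD files of the first set and at 6.06, 20.02 and 5.59 RPKM in those of the second. *Usp17le* was at 12.1, 43.1 and 17.5 RPKM in the first set and at 5.30, 29.1 and 4.59 RPKM in the second, in the same order. Both genes were highest in the Ring1BKD files, labelled control 2 and Dzip3-KD 1. The ratio to the control file was 2.72 and 3.30 for *Usp17lc* and 3.55 and 5.49 for *Usp17le*. The Dzip3KD files lay close to the control files for *Usp17lc*, at 1.04 and 0.922 times their level. Of the 50-base stretches of the annotated transcript, 13.9% for *Usp17la*, 44.2% for *Usp17lc* and 25.8% for *Usp17le* also occur in another coding gene. The study counted uniquely mapped reads, so the values of these close relatives may share errors and are uncertain as separate measurements.

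*Zfp352* encodes a zinc finger protein known for its expression in 2-cell embryos. It was at 4.69, 11.2 and 4.46 RPKM in the control, Ring1BKD and Dzip3KD files of the first set. In the second set it was at 2.41, 7.58 and 1.97 RPKM. The Ring1BKD file was again the highest of each set, at 2.39 and 3.15 times the control file, from 87 reads against 32 and 56 against 18. In the transcript of *Zfp352*, 8.67% of 50-base stretches occur in another coding gene.

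*Tmem92* is named for a predicted transmembrane protein and was the most highly expressed of the 6 genes per length of exon. The mm9 annotation that gave its position and transcript lists it as *Tmem92-ps*, a name of the kind given to pseudogenes. It was at 15.0, 46.5 and 16.4 RPKM in the control, Ring1BKD and Dzip3KD files of the first set. It was at 14.8, 63.8 and 16.2 RPKM in those of the second set. The 4 libraries outside the Ring1BKD files lay within 14.8 and 16.4 RPKM, whereas the Ring1BKD files were 3.09 and 4.31 times the control file. *Tmem92* shared no 50-base stretch with the coding genes it was compared with and had 116 to 533 reads per library.

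*Arg2* encodes the mitochondrial arginase, which splits arginine into ornithine and urea. It was at 1.40, 7.32 and 3.97 RPKM in the control, Ring1BKD and Dzip3KD files of the first set and at 2.61, 5.65 and 1.03 RPKM in those of the second. The Ring1BKD file was highest in both sets, at 5.21 and 2.16 times the control file. Whole reads could not be recovered for *Arg2*, so the counting error of its low values is unknown. Its Dzip3KD file was 2.83 times the control file in the first set and 0.394 times in the second, the widest such gap among the 6 genes.

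**Figure D1:**
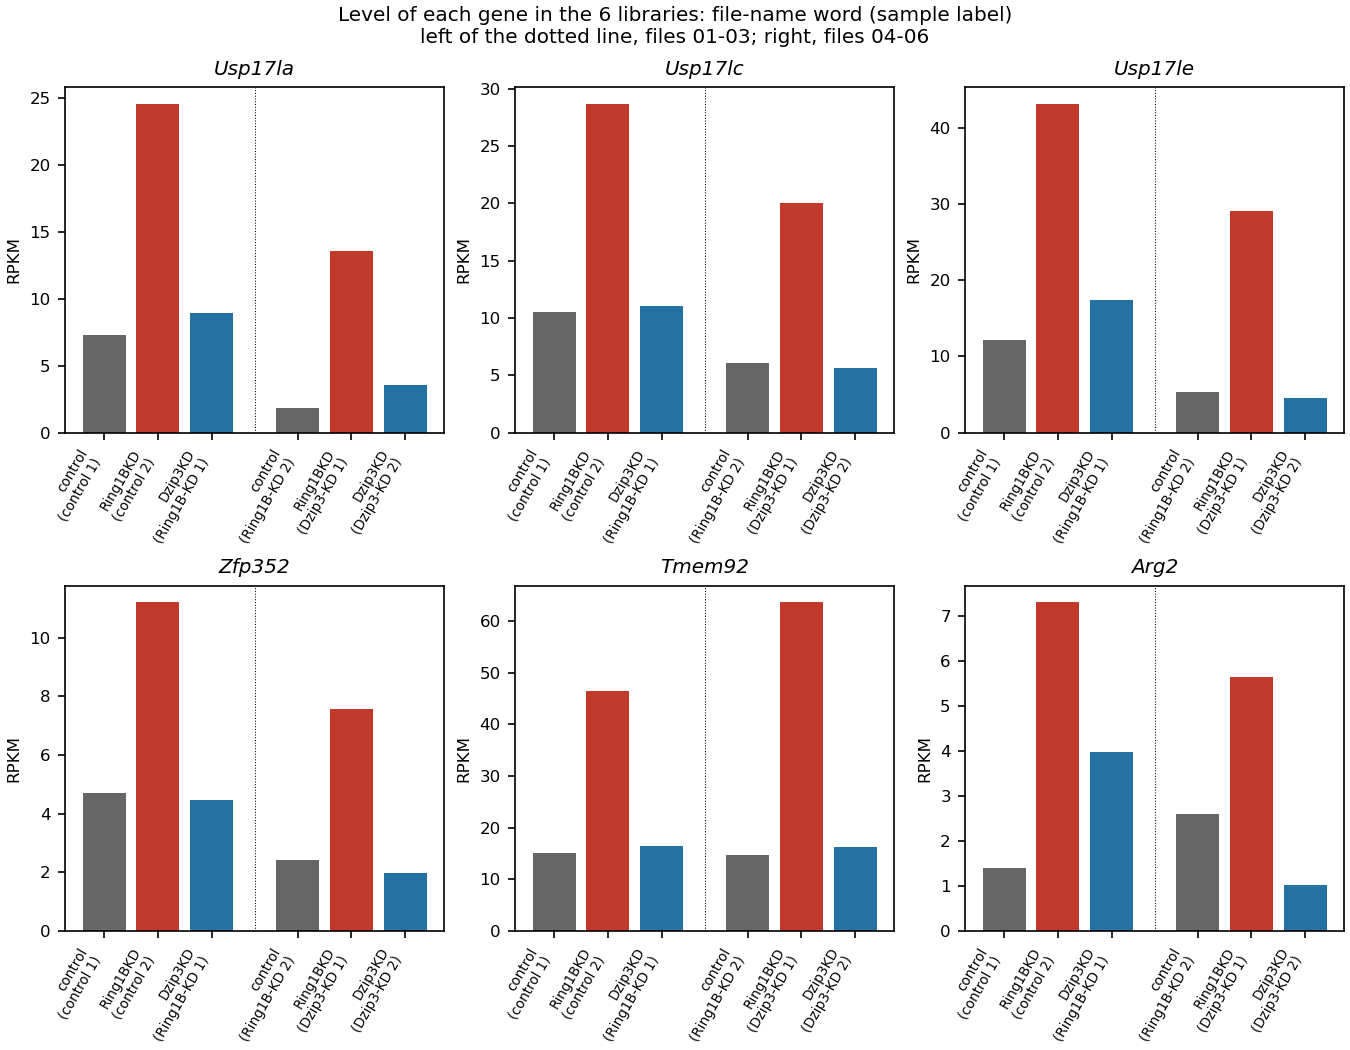
RPKM of each of the 6 genes (y axes from 0, scaled per gene) in the 6 libraries, each bar 1 library, named by its file-name word with the sample label in brackets. Red bars, the Ring1BKD files, were the highest of both sets for all 6 genes, and *Tmem92* reached 63.8 RPKM in the second.

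Across the 6 genes, the 2 highest of the 6 values were those of the Ring1BKD files in every case. The ratio of the Ring1BKD to the control file ranged from 2.39 to 5.21 (median 3.24) in the first set and from 2.16 to 7.40 (median 3.81) in the second. The pattern of the Ring1BKD file being highest in both sets was shown by 6 of 6 genes. It was shown by 8.99% of the 11538 genes, but nothing can be read from this count since the same values chose the genes. On the log2(RPKM + 1) scale, which understates the change of low genes, the difference was over 1 in both sets for 5 of 6 genes and for 0.607% of all genes tested. *Arg2* was the exception, with 1.79 and 0.88.

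The Dzip3KD files gave no such common direction. The Dzip3KD file was above the control file for 5 of 6 genes in the first set, with ratios from 0.95 to 2.83, and for 2 of 6 in the second, with ratios from 0.394 to 1.96. *Usp17la* and *Tmem92* were above in both sets, against 22.3% of all genes. For *Tmem92* the ratios were 1.09 and 1.10. The Dzip3KD files were below the Ring1BKD files for all 6 genes in both sets. The Ring1BKD to Dzip3KD ratio was 1.84 to 2.83 in the first set and 3.58 to 6.33 in the second.

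The level also differed between the sets. The file of the first set was above the file of the second with the same word for 5 of 6 genes with the word control, 5 of 6 with Ring1BKD and 6 of 6 with Dzip3KD. The ratio of first to second set was 0.538 (*Arg2*) to 3.97 (*Usp17la*) for the control files and 0.729 (*Tmem92*) to 1.82 for the Ring1BKD files. *Tmem92* in the Ring1BKD files and *Arg2* in the control files were the cases with the higher value in the second set.

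By sample label, the groups overlapped for most of the genes. Over the libraries labelled control, *Tmem92* averaged 30.8 ± 22.2 RPKM and *Usp17le* 27.6 ± 21.9 RPKM (SD, n = 2). Over those labelled Ring1B-KD the means were 15.6 ± 1.18 and 11.4 ± 8.59 RPKM (SD, n = 2). The label Dzip3-KD had means of 40.0 ± 33.6 and 16.8 ± 17.3 RPKM (SD, n = 2). For both genes the SD within the label control exceeded the difference between its mean and that of Ring1B-KD. Both libraries labelled Ring1B-KD were below both labelled control for 1 gene of 6, *Zfp352*, at 4.46 and 2.41 against 4.69 and 11.2 RPKM, and for 18.9% of all genes. They were above both for 0 of 6, against 14.9% of all genes. The Dzip3-KD pair lay entirely below the control pair for 0 of 6, against 30.3%, and entirely above it for 0 of 6, against 20.4%.

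The median log2 difference over the 6 genes was -0.98 for Ring1B-KD against control by label, with all 6 negative. It was -0.69 for Dzip3-KD against control, but 0.30 with the file set as a block, 0.25 without the library labelled Dzip3-KD 2 and 0.0043 without control 2. It was 0.31 for Dzip3-KD against Ring1B-KD, but -0.51 without the library labelled Dzip3-KD 1 and -0.20 without Ring1B-KD 2. By file-name word within sets it was 1.63 for Ring1BKD against control, 0.12 for Dzip3KD against control and -1.50 for Dzip3KD against Ring1BKD. The value for Dzip3KD against control was -0.20 without the library labelled Ring1B-KD 1. The medians over all genes tested lay between -0.08 and 0.05. The sign for Ring1B against control thus differed between label and word, and nothing is read from this about which name is right, since the same values chose the genes.

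The targeted genes were examined beside these values. *Rnf2* was at 30.6, 20.4 and 26.8 RPKM in the control, Ring1BKD and Dzip3KD files of the first set and at 28.8, 19.4 and 28.2 RPKM in those of the second. It was thus lowest in the Ring1BKD files, labelled control 2 and Dzip3-KD 1, in which the 6 genes were highest. The log2 difference was -0.55 for Ring1BKD against control by word (SE 0.13, limma adjusted p 0.232) and 0.15 for Ring1B-KD against control by label (SE 0.24, limma adjusted p 0.965). Neither passed the threshold.

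*Dzip3* was at 2.24, 2.68 and 1.18 RPKM in the first set and at 1.89, 1.70 and 1.31 RPKM in the second. It was lowest in the Dzip3KD files, labelled Ring1B-KD 1 and Dzip3-KD 2. The log2 difference was -0.45 for Dzip3KD against control by word (SE 0.21, limma adjusted p 0.754) and -0.47 for Dzip3-KD against control by label (SE 0.24, limma adjusted p 0.458). By label the difference of *Dzip3* was also -0.46 for Ring1B-KD against control (SE 0.24) and was -0.0091 for Dzip3-KD against Ring1B-KD (SE 0.24). By word it was 0.042 for Ring1BKD against control (SE 0.21) and -0.49 for Dzip3KD against Ring1BKD (SE 0.21). None of these passed the threshold. The *Dzip3* values rest on 23 to 53 reads per library. The labels remain the groups of the study here, and the words are a second reading of the same libraries.

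**Figure D2:**
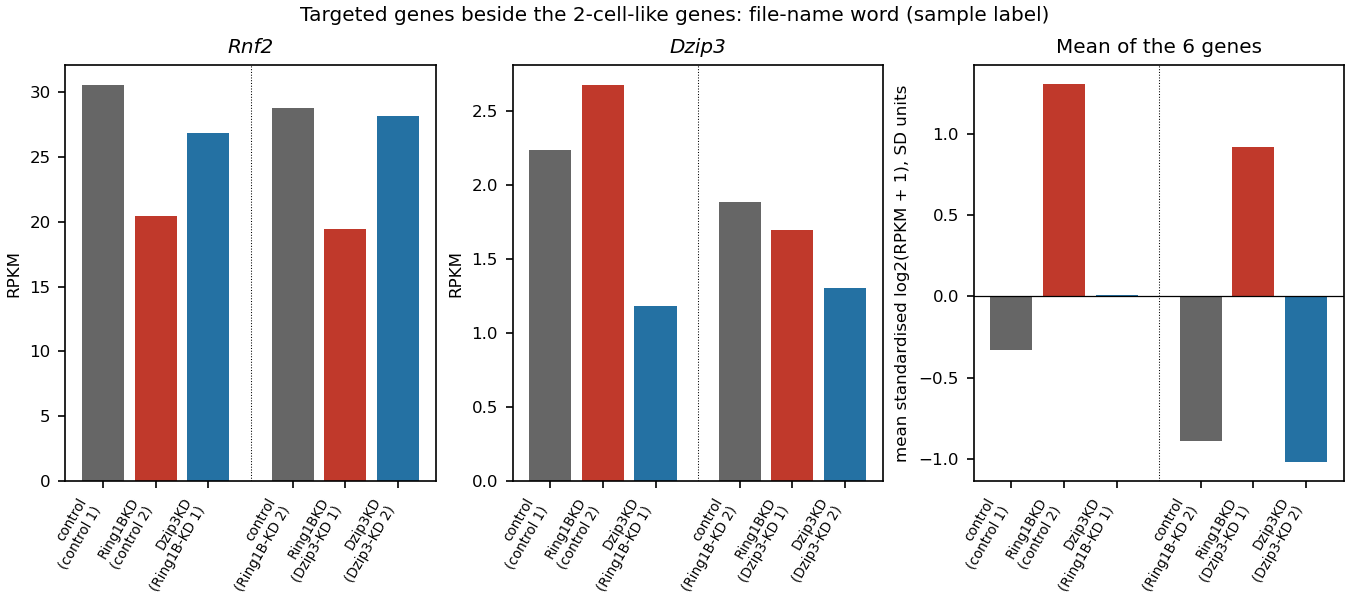
RPKM of *Rnf2* and *Dzip3* (left and middle, bars from 0) and the mean standardised log2(RPKM + 1) of the 6 genes (right, SD units), 1 bar per library with file-name word and sample label. The libraries with the lowest *Rnf2*, at 20.4 and 19.4 RPKM, had the highest mean of the 6 genes, 1.31 and 0.92.

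Levels of the 6 genes moved together over the 6 libraries. The same values chose the genes, so this is no test of whether they rise together. As a description over libraries that share depth, sets and words, Pearson's r of log2(RPKM + 1) was 0.75 to 0.996 for the 15 pairs of genes. The highest value, 0.996, was between *Usp17lc* on chromosome 7 and *Zfp352* on chromosome 4. *Usp17la* and *Usp17le*, which are 84.1 kb apart, had 0.966. *Tmem92* correlated less with the others, at 0.765 to 0.854, and *Arg2* at 0.75 to 0.868.

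To find the genes most like them, all 11532 other genes tested that varied were ranked by their correlation with the mean standardised profile of the 6. The first was *Gm12794*, a predicted gene of the 2-cell-like list, with r = 0.9969. It was at 13.7, 39.4 and 15.3 RPKM in the first set and 7.71, 30.6 and 7.30 RPKM in the second. Next came *A430089I19Rik* (0.9957), the growth factor gene *Fgf1* (0.9952), *Apol7b* (0.9921), the zinc finger gene *Zfp560* (0.9875) and *Zscan4b* (0.9860). *Fgf1* was at 1.87 and 6.26 RPKM in the control and Ring1BKD files of the first set and at 1.16 and 5.01 RPKM in those of the second. *Gm4303*, *Gm4305* and *Gm4307* followed with 0.9853 and identical values in every library, so they count as 1 measurement. *Gm2027* was last of the 10 with 0.9844. The same 10 genes led with a pseudocount of 0.1 RPKM. The 5 *Zscan4* genes listed had r from 0.947 to 0.986. Of the 11532 genes ranked, 72 had r over 0.95. The first 10 held 1 gene of the 2-cell-like list and 1 of the *Zscan4* cluster.

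Genes of the 2-cell-like state outside the 6 were then examined, using a list of 52 symbols from general knowledge. The list was drawn up with earlier results of these data known, so its counts are a description and no independent test. Of the 52 symbols, 40 were listed and 26 passed the filter on low values. The 14 others averaged 0.0304 to 0.499 RPKM and were not tested. Ring1BKD against control by word called 11 of the 26 as higher and 0 as lower, against 48 genes, or 0.416%, of all genes (limma with Benjamini-Hochberg adjustment, threshold 0.05). The median difference of the 26 was 1.31, and 24 of 26 were positive. *Usp17lb* and *Usp17ld*, both called, lie in the *Usp17l* group on chromosome 7. Positions of the other list genes are not given here, so the 11 may not be separate places in the genome. *Gm428* and *Trim43b* averaged under 0.5 RPKM over the 4 libraries outside the Ring1BKD files and so passed the filter through these files, and without them 10 of 24 were called, with a median of 1.31. *Gm13040* and *Gm13057*, neither of them called, had identical values in every library, so the 26 genes hold 25 distinct profiles. The 48 called genes were all higher. They comprised 5 of the 6 genes described here, for which the call is no evidence, and the 11 list genes. The rest were 5 *Zscan4* genes, *Nelfa* and 26 others. The 48 formed 42 distinct value profiles, since some of the others repeat each other or a list gene.

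*Gm428*, whose call is only a description because of its route through the filter, was at 0.22 and 6.55 RPKM in the control and Ring1BKD files of the first set and at 0.10 and 3.66 RPKM in those of the second. Among the other called list genes, *Usp17lb*, the neighbour of *Usp17la*, rose by 1.92 (SE 0.15, limma adjusted p 0.0129), and *Usp17ld* by 1.68 (SE 0.22, limma adjusted p 0.0237). All 5 *Usp17l* genes were highest in the Ring1BKD files. Of the 50-base stretches of the annotated transcript, 20.5% for *Usp17lb* and 50.4% for *Usp17ld* also occur in another coding gene. These 2 are therefore uncertain as measurements separate from the other *Usp17l* genes. *Gm12794*, *Gm6763*, *Tdpoz4*, *Gm5662*, *Gm2016*, *BC061212*, *BB287469* and *Gm13119* made up the rest, with differences of 1.29 to 1.66. Among these, *Gm5662* had the highest level, at 56.9 and 129 RPKM in the control and Ring1BKD files of the first set and 31.2 and 121 RPKM in the second.

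*Dux*, which encodes the activator of the programme, was at 2.29, 5.47 and 2.93 RPKM in the control, Ring1BKD and Dzip3KD files of the first set and at 2.24, 4.23 and 0.69 RPKM in the second. Its log2 difference of 0.83 (SE 0.29, limma adjusted p 0.469) did not pass. The Ring1BKD file was the highest of both sets for 23 of the 26 list genes and for 5 of 5 *Zscan4* genes. The exceptions were *2610305D13Rik*, *Gm13043* and *Obox6*. *2610305D13Rik*, among the most highly expressed of the list, had a difference of -0.42 (SE 0.13, limma adjusted p 0.387), from 60.5, 47.8 and 60.9 RPKM in the first set and 56.8, 39.7 and 52.3 RPKM in the second.

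The call of the list depended on the fit. With a pseudocount of 0.1 RPKM, 6 of the list genes were called, and without the library labelled Dzip3-KD 1, 2 were. Without the filter or without the set term limma called 0, with 22 and 19 list genes at an unadjusted p under 0.05.

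**Figure D3:**
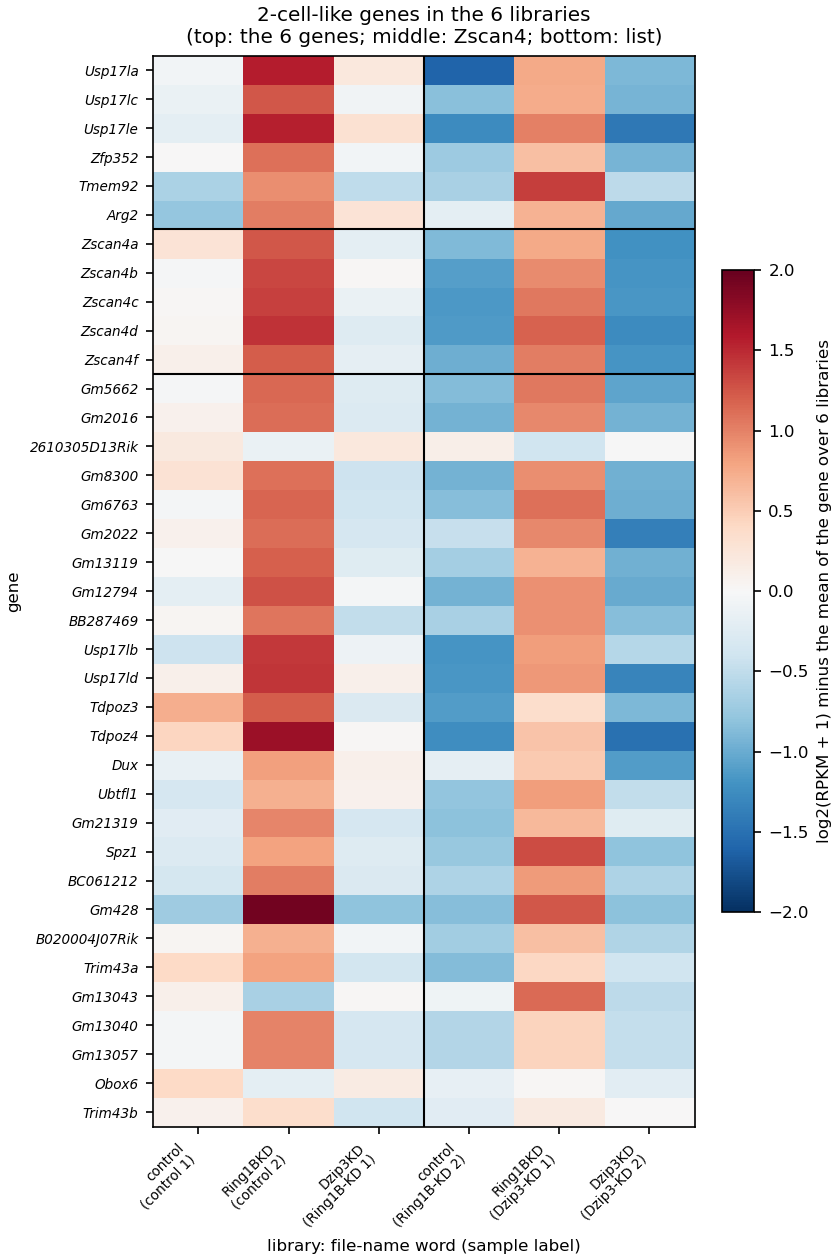
Log2(RPKM + 1) minus the mean of each gene over the 6 libraries (colour) for the 6 genes, the 5 *Zscan4* genes and the 26 list genes tested (rows, list genes by mean RPKM), with libraries as columns by file-name word and sample label. Both Ring1BKD columns are red for all but *2610305D13Rik*, *Gm13043* and *Obox6*, and the control and Dzip3KD columns of the second set are mostly blue.

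Dzip3KD against Ring1BKD called 78 genes, 0.676% of those tested, of which 70 were lower. Of the 26 list genes, 13 were lower and 0 higher, with a median of -1.43. Without *Gm428* and *Trim43b* these were 12 of 24, with the same median to 2 decimals. *Tdpoz4* fell by 1.88 (SE 0.20, limma adjusted p 0.00722) and *Gm2022* fell by 1.89 (SE 0.20, limma adjusted p 0.00753). This comparison shares the Ring1BKD files with the one above and is no independent support for it. Without the library labelled Ring1B-KD 1 or that labelled Dzip3-KD 2, 7 list genes were called. Without the filter or the set term limma called 0, with 24 and 22 list genes at an unadjusted p under 0.05. For Dzip3KD against control limma called 0 genes, or 0%, with 752 at an unadjusted p under 0.05, 2 of them in the list.

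By sample label limma called 0 genes, or 0%, in each of the 3 comparisons. For Dzip3-KD against control the count was 24 in a fit of the 4 libraries compared, 25 without the library labelled Ring1B-KD 1 and 27 without Ring1B-KD 2. Without adjustment, p was under 0.05 for 589 genes for Ring1B-KD against control, 1411 in Dzip3-KD against control and 534 for Dzip3-KD against Ring1B-KD. With no difference at all, a share of 0.05 of the 11538 genes tested would be expected there, so counts near that share are no sign of change. The largest count is from the comparison in which label and set cannot be told apart. The median of the 26 list genes was -1.01, -0.49 and 0.45 in the 3 comparisons, in the same order. The medians of the list and of the 6 genes had the same sign in each comparison by label and by word except Dzip3KD against control, where they were -0.13 and 0.12.

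**Figure D4:**
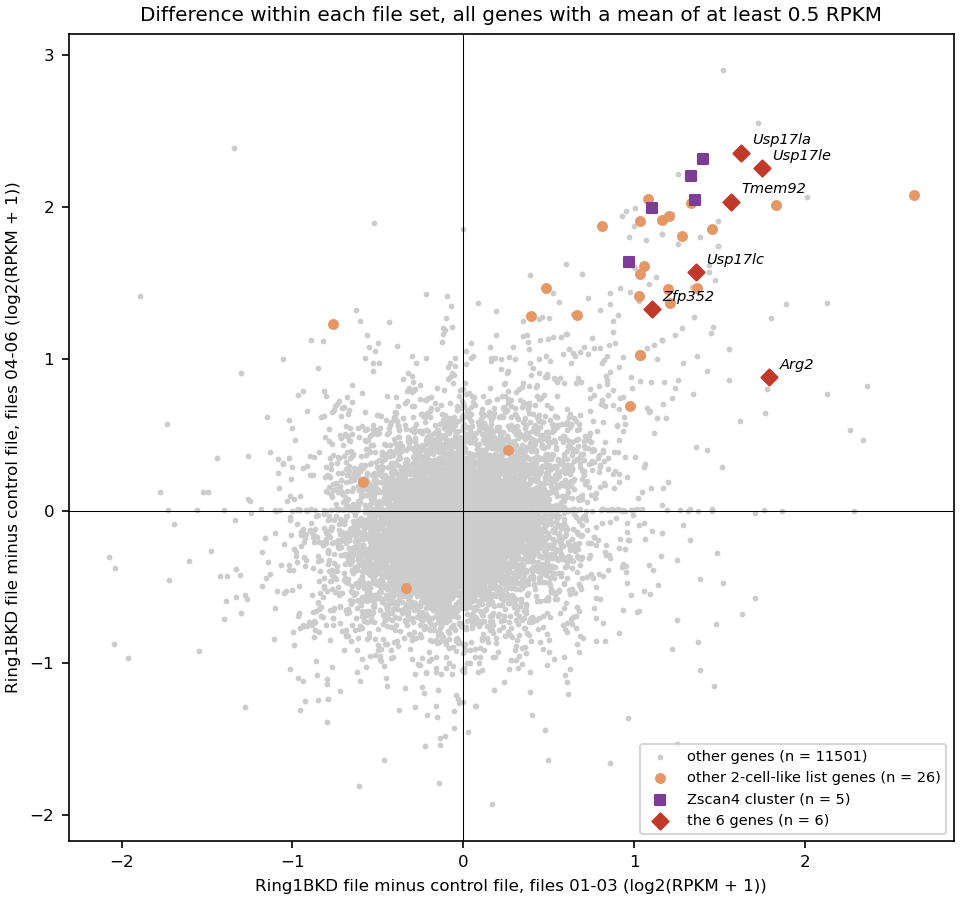
Difference between the Ring1BKD and control files on the log2(RPKM + 1) scale in the first set (x axis) and the second set (y axis), 1 point per gene tested, with other genes in grey. The 6 genes (red) lie at 1.10 to 1.79 and 0.88 to 2.36, among the *Zscan4* genes (purple) and most list genes (orange).

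Known activators and repressors of the 2-cell-like state formed a list of 23 genes, all tested. In Ring1BKD against control 1 of 23 was called, *Nelfa*, which encodes a subunit of the negative elongation factor. It was at 33.8, 74.3 and 34.7 RPKM in the control, Ring1BKD and Dzip3KD files of the first set and at 25.9, 67.3 and 18.6 RPKM in the second, with a difference of 1.23 (SE 0.18, limma adjusted p 0.0363). The other 22 did not pass, and the median of the list was -0.14. The repressor gene *Trim28* had a difference of -0.046 and *Dppa4*, which encodes an activator of *Dux*, 0.018. *Dppa2*, its partner, had 0.30 (SE 0.17, limma adjusted p 0.665).

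Lists of other enzymes were examined beside the share of 0.416% called over all genes, at which lists of this size would hold few or no calls. Of 16 other ubiquitin-specific proteases tested, 0 were called by limma in Ring1BKD against control, with a median difference of -0.15. Of 9 enzymes of arginine, ornithine and polyamine metabolism tested, 0 were called, with a median of -0.08. These counts are near that share and are no result about the enzymes. Over all genes that comparison had 959 at an unadjusted p under 0.05. *Otud6a*, a deubiquitylating enzyme gene in neither list and chosen after its value was seen, was called higher, by 1.75 (SE 0.26, limma adjusted p 0.0382).

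The genes next to each of the 6 were examined, taking the 2 nearest listed genes on each side. Outside the *Usp17l* family and the marker lists there were 18 such genes, of which 10 were tested and 1 was called in Ring1BKD against control. This was *Gm11545*, 16 kb from *Tmem92*, with a difference of 1.30 (limma adjusted p 0.0418). *Gm11544*, 62.7 kb from *Tmem92* on its other side, had 0.98 (limma adjusted p 0.232), and *Xylt2*, 99.7 kb away, had -0.18 (limma adjusted p 0.837). Next to *Usp17lc*, *Trim68* had 0.19 and *Trim6* -0.11. *Pigh*, 41.1 kb from *Arg2*, had 0.070, and *Rdh11*, 18 kb away, had 0.31 (limma adjusted p 0.709). The nearest tested genes to *Zfp352* were *Cdkn2b*, 929 kb away with -0.11, and *Elavl2* with -0.0087.

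**Figure D5:**
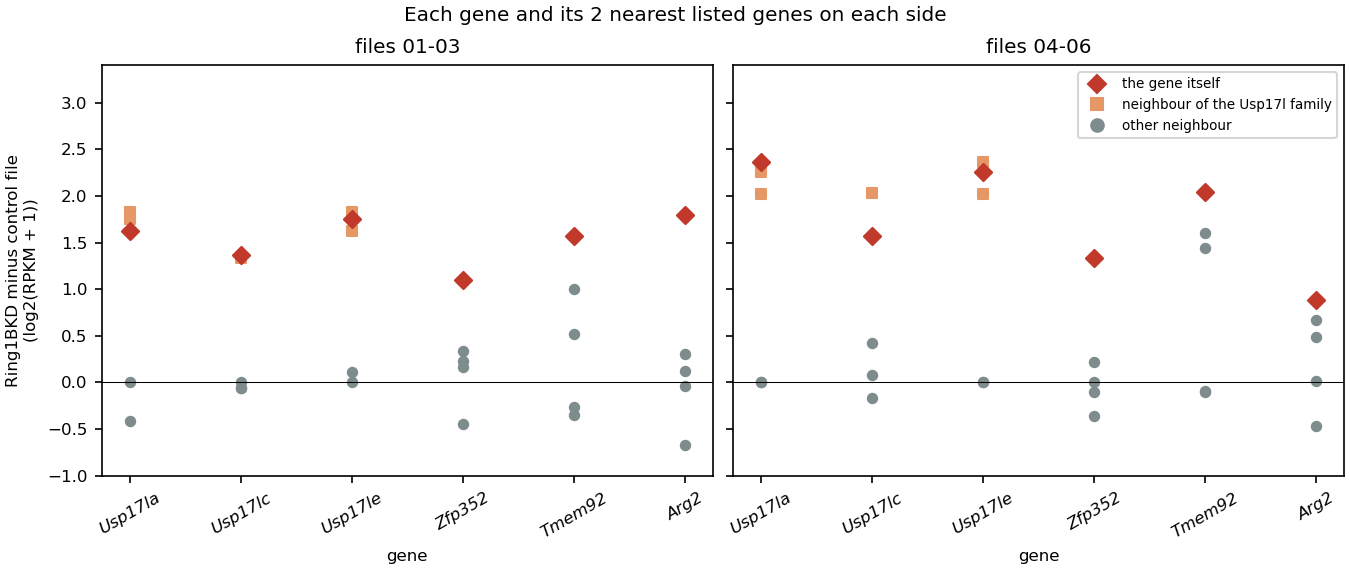
Difference between the Ring1BKD and control files (y axis, log2(RPKM + 1)) for each of the 6 genes (red diamonds) and the 2 nearest listed genes on each side (squares, *Usp17l* family; circles, others), with the first set left and the second right. Only the genes beside *Tmem92* reach 1 or more among the circles, *Gm11545* with 1.01 and 1.60 and *Gm11544* with 1.44 in the second set.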

How the data were processed

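RNA-seq of 6 mES cell libraries was used, with 2 per label. The study prepared stranded libraries from mRNA, sequenced them on a MiSeq, aligned reads to mm9 and counted those unique to a gene. The authors deposited RPKM values, 1 list of genes per library, a unit that accounts for depth and exon length and leaves RNA composition uncorrected. The annotation and software versions are not given in the sources used here.

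Whole reads were recovered from the steps of low values and annotated lengths for 15544 of 16668 genes (93.3%), within 0.02 reads. Comparisons were fitted on log2(RPKM + 1) by limma 3.58.1 (R 4.3.3) with a variance trend, for 11538 genes averaging 0.5 RPKM or more, with Benjamini-Hochberg adjustment over these genes and a threshold of 0.05. Each fit held all 6 libraries, grouped by label without covariates or by file-name word with the file set as a term. Other work used Python 3.11.15, SciPy 1.17.1 and Biopython 1.88, and code was tested on simulated reads. The genes and lists were chosen with earlier results of these data known. Named genes were the 6, list genes with the highest level or an adjusted p under 0.05, the 10 most alike, the 2 nearest on each side and both targeted genes. Symbols were placed by name or RefSeq synonym. Other genes named by their values were chosen after these were seen. Nothing in the labels says that duplicates came from separate cultures, so p-values measure the spread between these libraries, which may be technical.

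The alternatives were a pseudocount of 0.1 RPKM, no filter, scaling to the 75th percentile, each library left out, blocks, and fits of the 4 libraries compared.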

Additional observations from a re-analysis of the deposited data

Results flagged for a closer look

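For 3 of the 6 genes the Dzip3KD file lay on opposite sides of the control file in the 2 sets, with 1 library of each word per set, and the difference between the sets was not tested. On the log2(RPKM + 1) scale the Dzip3KD file minus the control file was 1.05 in the first set and -0.83 in the second for *Arg2*. It was 0.49 and -0.17 for *Usp17le*, and 0.055 and -0.10 for *Usp17lc*.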

How the results depend on the processing

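The median difference of the 6 genes in Ring1BKD against control by word was 1.63 and stayed between 1.45 and 1.82 with each library left out. By label, that for Ring1B-KD against control was -0.98 and ranged from -1.60, without the library labelled control 1, to -0.31, without control 2. The median for Dzip3-KD against control, where label and set cannot be told apart, was -0.69, but 0.30 with the file set as a block. It ranged from -1.49, without Dzip3-KD 1, to 0.25, without Dzip3-KD 2. That for Dzip3-KD against Ring1B-KD was 0.31 and ranged from -0.51, without the library labelled Dzip3-KD 1, to 1.32, without Dzip3-KD 2. By word, that for Dzip3KD against control was 0.12 and ranged from -0.20, without Ring1B-KD 1, to 0.35, without Dzip3-KD 2. The cause was not tested. The 48 genes called in Ring1BKD against control became 21 with a pseudocount of 0.1 RPKM, 0 without the filter and 0 without the set term (limma, 1278 and 421 at an unadjusted p under 0.05). With each library left out they ranged from 3, without the library labelled Dzip3-KD 1, to 61. The 78 of Dzip3KD against Ring1BKD became 42 with that pseudocount, 0 without the filter and 0 without the set term (1434 and 520 unadjusted), and ranged from 26, without the library labelled Ring1B-KD 1, to 172, without control 1. They were 171 without Ring1B-KD 2, 39 without Dzip3-KD 1 and 40 without Dzip3-KD 2. Dzip3KD against control ranged from 0 to 4. The 0 calls of Dzip3-KD against control by label became 24 in a fit of the 4 libraries compared and ranged from 0 to 27 with each library left out, with 27 without Ring1B-KD 2 and 25 without Ring1B-KD 1. Same-numbered libraries did not deviate together (correlations -0.24, -0.04 and 0.04). A replicate block led to 0 calls for Ring1B-KD against control, 1 for Dzip3-KD against control and 0 for Dzip3-KD against Ring1B-KD. A crossed pairing, chosen after seeing the data, called 182 for Dzip3-KD against control. It paired control 2 with Dzip3-KD 1, both of them Ring1BKD files, and control 1 with Dzip3-KD 2. Each pair had its control library in the first set and its Dzip3-KD library in the second, so label and set cannot be told apart in these calls. At this depth, genes with few reads limit what could be detected.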

Other observations

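The 26 genes outside the lists that were called higher in Ring1BKD against control by file-name word formed 22 distinct value profiles, and 12 of them had predicted-gene symbols beginning with Gm. Among these, *Gm21293*, *Gm21304* and *Gm8764* had the same difference, SE and adjusted p as the list gene *Gm6763*, and *Gm7978* the same as the list gene *BC061212*. They are therefore no measurements beyond those list genes. The others included genes with known products, which were chosen for mention after their values were seen. *Lgals4*, which encodes a galectin, rose by 1.70 on the log2(RPKM + 1) scale (limma adjusted p 0.0156), and *Spesp1*, which encodes a sperm equatorial segment protein, by 1.51 (limma adjusted p 0.0156). *Igfbp3*, which encodes a binding protein of insulin-like growth factors, rose by 1.31 (limma adjusted p 0.0202), and *Ccl3*, which encodes a chemokine, by 1.34 (limma adjusted p 0.0466). *Otud6a*, which encodes a deubiquitylating enzyme outside the *Usp17l* family, rose by 1.75 (limma adjusted p 0.0382). The PRAME family genes *Pramef25* and *Pramef6* rose by 1.43 (limma adjusted p 0.0303) and 1.60 (limma adjusted p 0.0363). These calls share the limits given for the whole comparison and were not made by sample label.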
